A study of Mus musculus with 20 samples.

Results

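The comparison described here set lungs of mice that had received both a flaxseed diet and thoracic radiation against lungs of untreated mice. The rule took the 5 arrays labelled with both treatments and the 5 labelled with none, 10 of the 20 arrays of the series, and compared them over all 9600 clones of the MA07 cDNA array. The doubly treated mice were C57BL/6 animals fed 10% flaxseed for 21 days, then given 13.5 Gy to the thorax and killed 48 hours later. Mice of the radiation group received the same dose and interval without flaxseed, those of the flaxseed group the same diet without radiation, and untreated mice received neither, with 5 mice in each group and 1 array per mouse. The labels do not say what the mice without flaxseed ate, nor the age or sex of the animals. In what follows, mice are numbered 1 to 5 within their group.

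Ionising radiation breaks DNA and activates the p53 response, which halts division or triggers cell death, and in the lung it is followed by inflammation and, later, by fibrosis. Flaxseed is a source of lignans and of alpha-linolenic acid, an omega-3 fatty acid. Gut bacteria convert the lignans to enterolactone and enterodiol, which have antioxidant activity. Clone IDs are running numbers with no gene beside them in the files, and 0 of the 9600 matched the mouse gene table used here. Clones are therefore given by ID, no gene group could be followed, and the labelled tissue could not be set against marker genes.

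Few clones passed the test of doubly treated against untreated lungs. At an adjusted p under 0.05 in limma, 17 clones were called, 0.177% of all. Of these 13 fell (0.135% of all clones) and 4 rose (0.0417%). The median absolute log2 fold change over the 9600 clones was 0.18, a factor of 1.13, and 95% of clones lay within 1.52-fold. These sizes include the spread between mice. For flaxseed alone minus untreated, limma called 0 clones (0% of all). There the median absolute log2 fold change was 0.17, with 266 clones at least 1.5-fold lower and 200 at least 1.5-fold higher. That contrast does not measure the spread alone, since a difference by diet can add to it. Flaxseed mice also differed more among themselves than doubly treated mice did (mean squared log2 difference 0.371 against 0.271). By fold size alone, without a test, 306 clones were at least 1.5-fold lower (3.19%) and 247 at least 1.5-fold higher (2.57%) in doubly treated lungs. At 2-fold or more there were 52 lower clones (0.542%) and 6 higher ones (0.0625%), and at 4-fold or more 7 lower (0.0729%) and 0 higher ones. In whole lung, fewer cells of a type and less RNA per cell cannot be told apart.

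**Figure D1:**
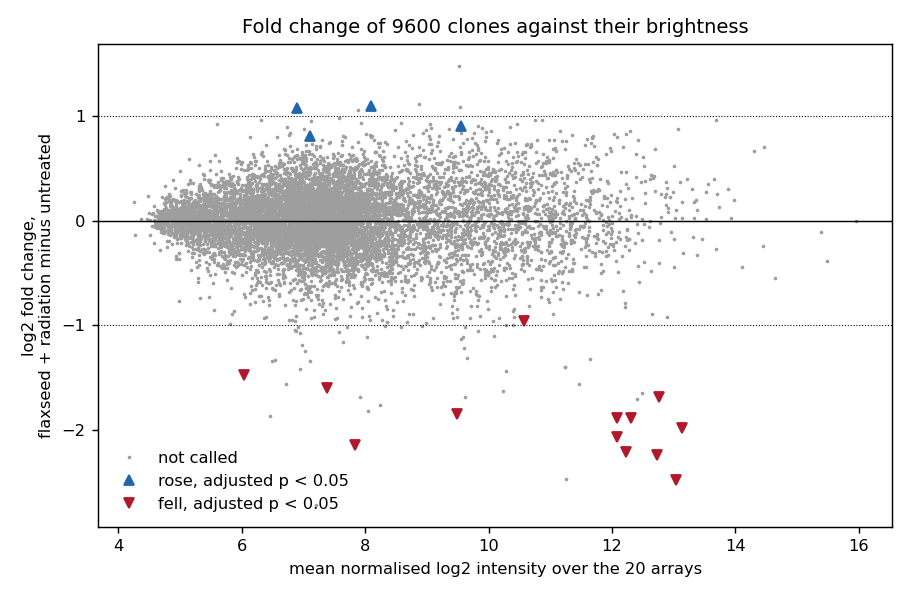
Log2 fold change of doubly treated minus untreated lungs (y axis) against the mean normalised log2 intensity over the 20 arrays (x axis), 1 point per clone, with dotted lines at a 2-fold change. The 13 clones that fell (downward triangles) include 9 of the 960 brightest clones, and the 4 that rose (upward triangles) lie closer to the cloud of all clones.

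For most of the array a large difference could be bounded. The 95% confidence interval of the log2 fold change lay wholly within 2-fold either way for 8357 clones, 87.1% of all, and within 1.5-fold for 3386 clones, 35.3%. It lay wholly beyond a 1.5-fold change for 27 clones, 0.281% of all. These intervals are per clone and not adjusted for the 9600 clones. Of the 17 called clones, 12 falls and 2 rises were among the 27, and the rest of the 27 were not called. The 8357 became 6317 with plain background subtraction, 6125 in the authors' processed table and 7422 with no offset. With an offset of 50 and with the membrane trend removed the number was 8832 and 8881. An interval typically reached 0.46 log2 units to either side, the median over clones. Simulation of this comparison placed 200 changed clones in each of 20 runs, where the data themselves gave 17 calls. A change of 1.5-fold was recovered in 17.9% of cases, one of 2-fold in 64.9% and one of 4-fold in 98.3%. In these runs changes near 1.5-fold were mostly not recovered with 5 mice in each group. The simulated noise was independent between clones and had no trend over the membrane, unlike the data described below. Recovery with such noise or with fewer than 200 changed clones was not tested, so these shares hold for that setting alone.

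The strongest evidence for a fall was that of gene7221. Its normalised log2 intensity was 11.41, 10.54, 10.95, 10.95 and 11.94 in doubly treated mice 1 to 5, against 13.49, 13.67, 13.39, 12.86 and 13.39 in untreated mice 1 to 5. The highest doubly treated mouse lay almost 1 log2 unit below the lowest untreated mouse. The means were 11.16 ± 0.54 and 13.36 ± 0.30 (SD, n = 5), a log2 fold change of -2.21 (SE 0.31, limma adjusted p = 0.0026). This is a 4.62-fold fall, with a 95% interval of 2.95 to 7.21-fold. In mice given radiation alone the clone was at 10.83 ± 0.62 and in mice fed flaxseed alone at 13.53 ± 0.63 (SD, n = 5).

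The clone gene4847, among the brightest 1% of the array, had the largest fall of the called clones. It stood at 12.53, 12.84, 11.43, 10.90 and 11.71 log2 intensity in doubly treated mice 1 to 5, against 14.80, 14.19, 14.41, 14.00 and 14.41 in untreated mice 1 to 5. The groups did not overlap, and the doubly treated mice were more spread out, with an SD of 0.80 against 0.30 in untreated mice. Its log2 fold change was -2.48 (SE 0.36, limma adjusted p = 0.0026), a 5.58-fold fall with an interval of 3.34 to 9.31-fold. As signal before any correction, it ranged from 1970 to 8614 units in doubly treated mice and from 13172 to 33610 units in untreated mice.

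Among the clones that rose, gene4588 had the smallest p. Its log2 intensity was 7.41, 7.62, 7.48, 7.73 and 7.26 in doubly treated mice 1 to 5, against 6.42, 6.87, 6.34, 6.44 and 6.04 in untreated mice 1 to 5. Every doubly treated mouse was above every untreated mouse. The log2 fold change was 1.08 (SE 0.17, limma adjusted p = 0.00761), a 2.11-fold rise with an interval of 1.65 to 2.70-fold. It was at 7.15 ± 0.27 with radiation alone and at 6.51 ± 0.20 with flaxseed alone (SD, n = 5), so that 4 of the 5 mice given radiation alone, all but mouse 3, lay below the mean of the doubly treated mice and above all 5 mice fed flaxseed alone.

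The clone gene0120 was the next by p among the rises. It was at 9.93, 10.27, 9.97, 10.04 and 10.24 log2 intensity in doubly treated mice 1 to 5, against 9.12, 9.62, 9.14, 8.89 and 9.19 in untreated mice 1 to 5. Untreated mouse 2 was the one nearest to the doubly treated mice. The log2 fold change was 0.90 (SE 0.16, limma adjusted p = 0.0241). Its call was lost without untreated mouse 3, 4 or 5 (adjusted p = 0.0592, 0.0777 and 0.069) and without doubly treated mouse 3, 4 or 5 (0.062, 0.069 and 0.063), whereas the other 3 clones given by ID passed with each of the 20 mice left out.

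**Figure D2:**
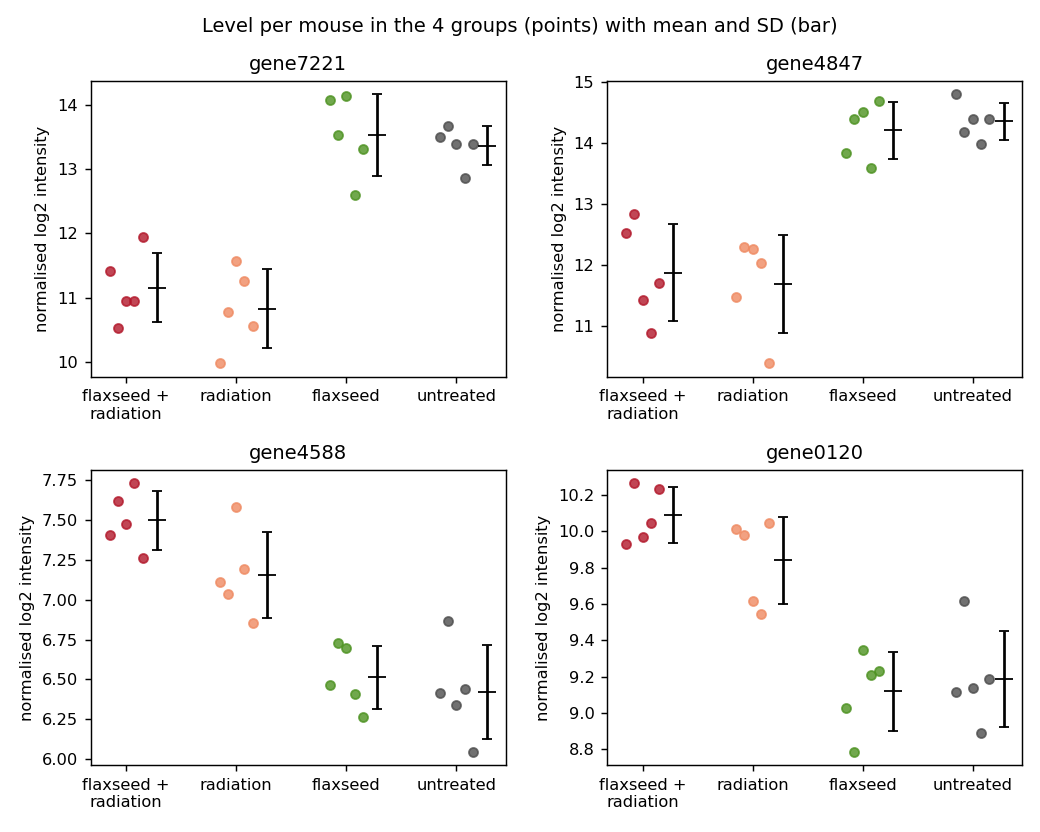
Normalised log2 intensity (y axis) of 4 clones in each mouse of the 4 groups (x axis), with the mean and SD as a bar beside the points. The doubly treated mice do not overlap the untreated mice for any of the 4. For gene7221 and gene4847 the mice given radiation alone average 10.83 and 11.70, beside 11.16 and 11.88 in doubly treated mice.

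The 13 falls were large and belonged mostly to bright spots. Their log2 fold changes ran from -2.48 to -0.96 with a median of -1.89, against a median of 0.01 over all 9600 clones, and 12 of the 13 exceeded 2-fold. Their mean levels had a median of 11.14 in doubly treated and 13.03 in untreated mice, and 9 of the 13 were among the 960 brightest clones. The 4 rises were smaller, from 0.81 to 1.09 with a median of 0.99. All 17 spots exceeded their local background on all 20 arrays, by however little. The dimmest of the 13 falls averaged 5.22 in doubly treated mice, close to the mean of 5.12 over the 960 dimmest clones, where the offset compresses differences.

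The bright falls were not independent of each other. Deviations of these 9 from their group means correlated across the 20 arrays with a median Pearson r of 0.63 over 36 pairs, from -0.13 to 0.81, against a median of -0.02 over all pairs of the 960 brightest clones. Of the 9, 5 lay in row 75 of the spot grid, and 4 of these stood at steps of 10 columns. The 6 pairs among those 4, picked out after their positions were seen, had r from 0.66 to 0.81. Clones that deviate together from mouse to mouse count for less than the same number of separate measurements, and whether they carry the same transcript is not given in the files.

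The size of the fall differed between doubly treated mice. Over the 13 clones, the median difference from the untreated mean was -1.70, -1.47, -2.41, -2.72 and -1.42 log2 units in doubly treated mice 1 to 5. Mice 3 and 4 were the lowest and are those whose removal left the fewest calls among the doubly treated mice. Over the 4 rises the same measure lay between 0.90 and 1.15 in all 5 doubly treated mice. These values describe the clones that the comparison itself selected. In mice fed flaxseed alone the 13 clones had median differences of -0.11, 0.33, 0.40, -0.77 and 0.47 in mice 1 to 5, where mouse 4 was below all untreated mice in 8 of the 13.

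The count of calls was small enough for single mice to decide it. It was 3 without untreated mouse 5 or without doubly treated mouse 3, 4 without doubly treated mouse 4, and 6 without untreated mouse 4 or doubly treated mouse 5. It was 7 without untreated mouse 2 or 3, 8 without flaxseed mouse 2 or 3, 10 without radiation mouse 3, and between 12 and 21 without any of the other 10 mice. All 4 called rises lay in the upper 40 rows of the spot grid and 11 of the 13 called falls in the lower 40 rows.

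Fold changes followed the position of the clones on the membrane. Of 946 clones with an unadjusted p under 0.05 in limma, 9.85% of all, 533 were higher (5.55%) and 413 lower (4.3%) in doubly treated lungs. The upper 40 rows of the grid held 470 of the 533 higher clones, and the lower 40 rows held 349 of the 413 lower ones. The median log2 fold change was 0.17 in the uppermost of 16 rows of blocks, -0.18 in the second lowest and -0.12 in the lowest.

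The tilt was also measured array by array. The median deviation of the upper 40 rows minus that of the lower 40 was 0.01, 0.26, 0.08, 0.05 and 0.05 log2 units in doubly treated mice 1 to 5, against -0.08, -0.11, -0.04, -0.15 and -0.22 in untreated mice 1 to 5. The groups did not overlap (means 0.09 ± 0.10 and -0.12 ± 0.07, SD, n = 5, two-sided exact permutation p = 0.00794, the smallest that 5 mice against 5 can give, adjusted over 4 pairs 0.0317). Mice given radiation alone were at 0.03 ± 0.11 and mice fed flaxseed alone at -0.00475 ± 0.061 (SD, n = 5), so that their means lay between those of the other groups. The mean of untreated mice was also below that of mice given radiation alone (exact permutation p = 0.0476, adjusted 0.0635) and that of mice fed flaxseed alone (exact permutation p = 0.0238, adjusted 0.0476). For doubly treated minus radiation-only mice the exact permutation p was 0.437 (adjusted 0.437). Whether clones of different kinds were laid out by position is not given in the sources used here, and membrane and treatment cannot be told apart in this measure.

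**Figure D3:**
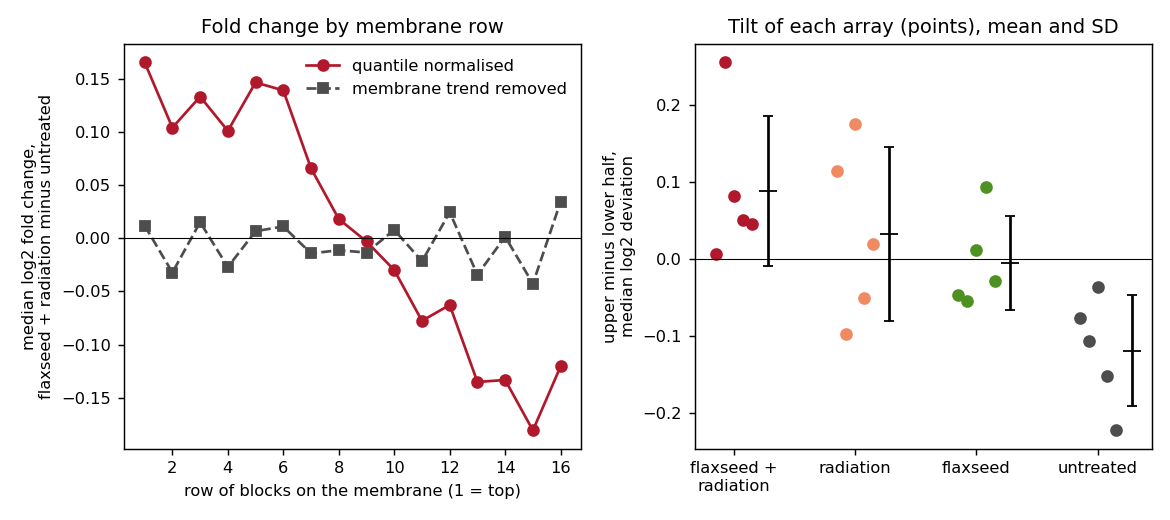
Left, the median log2 fold change of doubly treated minus untreated lungs (y axis) in each of 16 rows of blocks on the membrane (x axis, 600 clones each), after quantile normalisation (circles) and with the membrane trend removed (squares). Right, the upper minus the lower 40 rows of each array in log2 units (y axis), 1 point per mouse with the mean and SD beside them, where all doubly treated mice lie above 0 and all untreated mice below it.

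With each array's running median over the membrane removed, fewer clones passed. In limma 7 clones were called, 0.0729% of all, with 6 lower and 1 higher, and 6 of the 7 were among the 17. All 17 kept their direction, and the median of the 13 falls was -1.84. The trend was small beside these changes, with row medians from -0.18 to 0.17 against 0.81 or more either way. A reversal was therefore unlikely from the start, and the kept direction is a description. The log2 fold changes of gene7221, gene4847 and gene4588 were then -1.97, -2.30 and 1.01, with limma adjusted p of 0.000825, 0.00869 and 0.0107. That of gene0120 was 0.60 (SE 0.15, limma adjusted p = 0.184) and no longer passed. Of the clones with an unadjusted p under 0.05, 652 were left, with 323 higher and 329 lower in doubly treated lungs.

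How far the groups lay apart over all clones was measured as the squared log2 difference between mice, averaged over the 9600 clones. Between a doubly treated and an untreated mouse it averaged 0.318, against 0.271 between doubly treated mice and 0.277 between untreated mice. Subtracting the spread within the groups left a corrected squared distance between the group means of 0.0438, which is 13.8% of the difference between mice. Its square root was 0.21 log2 units, a factor of 1.16 per clone. A one-sided exact permutation test over the 10 mice gave p = 0.00794, the smallest possible with 5 mice against 5, and 0.0119 after adjustment over the distances of doubly treated mice to the other 3 groups. With the membrane trend removed the distance was 0.0266, 60.7% of the value before, and the exact permutation test again gave p = 0.00794. In the authors' processed table the distance was 0.0876, with the same exact p.

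Of the other 3 groups, the radiation group had the smallest distance from the doubly treated mice. The corrected distance to the radiation group was 0.00915 (one-sided exact permutation test, p = 0.143, adjusted over 3 distances 0.143), and that to the flaxseed group was 0.0806 (exact permutation p = 0.00794, adjusted 0.0119). Each of the 5 doubly treated mice had another doubly treated mouse as its nearest neighbour over all clones, and each of the 5 mice given radiation alone also had a doubly treated one. Of the untreated mice, 3 of 5 had a doubly treated mouse as their nearest neighbour. Doubly treated mice 1 and 5 had the lowest residual spread of the 20 arrays, 0.271 and 0.278 log2 units, where the others had up to 0.459, and a quiet array is near to many others. The part of this in the neighbours was not tested.

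**Figure D4:**
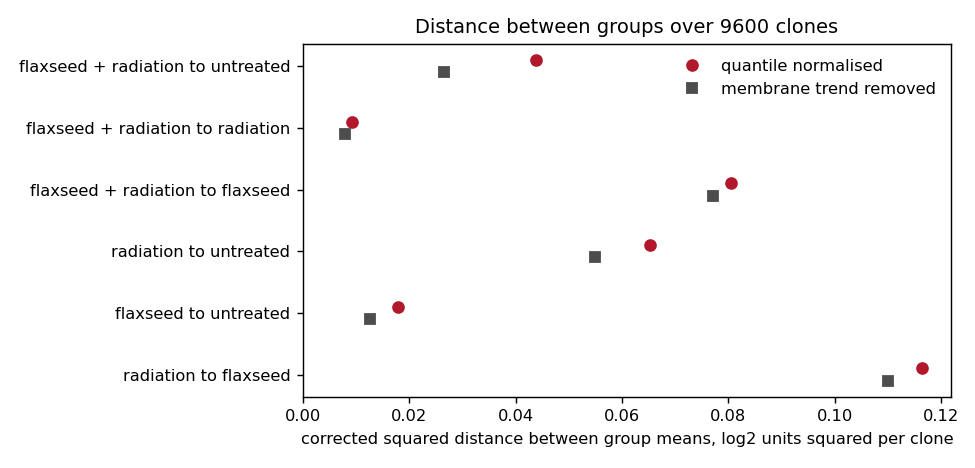
Corrected squared distance between group means in log2 units squared per clone (x axis) for 6 pairs of groups (rows), after quantile normalisation (circles) and with the membrane trend removed (squares). The pair of doubly treated and untreated mice lies at 0.0438 and 0.0266, and the pair of radiation and flaxseed mice at 0.116 and 0.110.

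Whether flaxseed plus radiation left the lung nearer to the untreated state than radiation alone did was tested on the distances themselves. The distance from untreated mice was 0.0438 for doubly treated mice and 0.0653 for mice given radiation alone, a difference of -0.0215. With mice exchanged between the irradiated groups, a two-sided exact permutation test gave p = 0.198 (adjusted over 2 tests 0.198). With the membrane trend removed the difference was -0.0283 (exact permutation p = 0.0238, adjusted over 2 tests 0.0476). Against flaxseed alone, which lay 0.0178 from the untreated mice, the difference was 0.026 (two-sided exact permutation p = 0.0476, adjusted over 2 tests 0.0952), and 0.0139 with the membrane trend removed (exact permutation p = 0.0476, adjusted 0.0476). Before trend removal, the unadjusted p for flaxseed alone was between 0.0556 and 0.294 without untreated mouse 2, 3 or 5 or without any of the 5 flaxseed mice. After adjustment neither difference passed before the membrane trend was removed, and both passed with it removed. The call of each after adjustment therefore depends on that step. For flaxseed alone the unadjusted exact permutation p was 0.0476 both before and after it. Its adjusted p fell only because the p of the other test did.

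The same measure was taken between the other 10 mice, whose levels do not enter the fold changes of the comparison but which share its normalisation and its estimate of spread. Mice given radiation alone and mice fed flaxseed alone lay 0.116 apart, 2.66 times the 0.0438 between doubly treated and untreated mice. Exchanging diets within the irradiated and within the unirradiated mice, a two-sided exact permutation test over 63504 assignments gave p = 0.00485 for the difference of 0.0726 between these distances. This test was chosen after the values were seen. With the membrane trend removed the distances were 0.110 and 0.0266, a ratio of 4.14 (exact permutation p = 0.000315). The p stayed under 0.05 with each of the 20 mice left out, at most 0.0128, and under all 12 alternatives, at most 0.0489 in the authors' processed table.

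The calls showed the same disproportion. For radiation alone minus flaxseed alone, limma called 624 clones (6.5% of all, with 282 lower, 2.94%, and 342 higher, 3.56%), against 17 for doubly treated minus untreated mice. The 624 became 369 without flaxseed mouse 2, 384 without radiation mouse 1 and 397 without radiation mouse 4, and was 440 to 837 under 16 alternatives. With each pair fitted from its own 10 arrays, 284 and 22 clones were called. The groups did not overlap in 477 clones (4.97%) for radiation and flaxseed mice and in 242 clones (2.52%) for doubly treated and untreated mice. The spread between mice was larger in the first pair, with mean squared differences of 0.369 within the radiation group and 0.371 within the flaxseed group, against 0.271 and 0.277 in the other groups.

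In radiation minus flaxseed, 16 of the 17 had the direction of doubly treated minus untreated, where 60.9% of all clones did. Of the 13 falls, 11 passed in that contrast, where 2.94% of all clones passed as lower. Of the 4 rises, 3 passed, where 3.56% of all clones passed as higher. The 9 bright falls deviated together across the arrays, so these are not counts of separate measurements. The 13 falls had a median of -2.22 in radiation minus flaxseed, against -0.09 over all 4658 clones that were lower in doubly treated lungs. The 4 rises had a median of 0.68, against 0.08 over the 4942 that were higher.

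**Figure D5:**
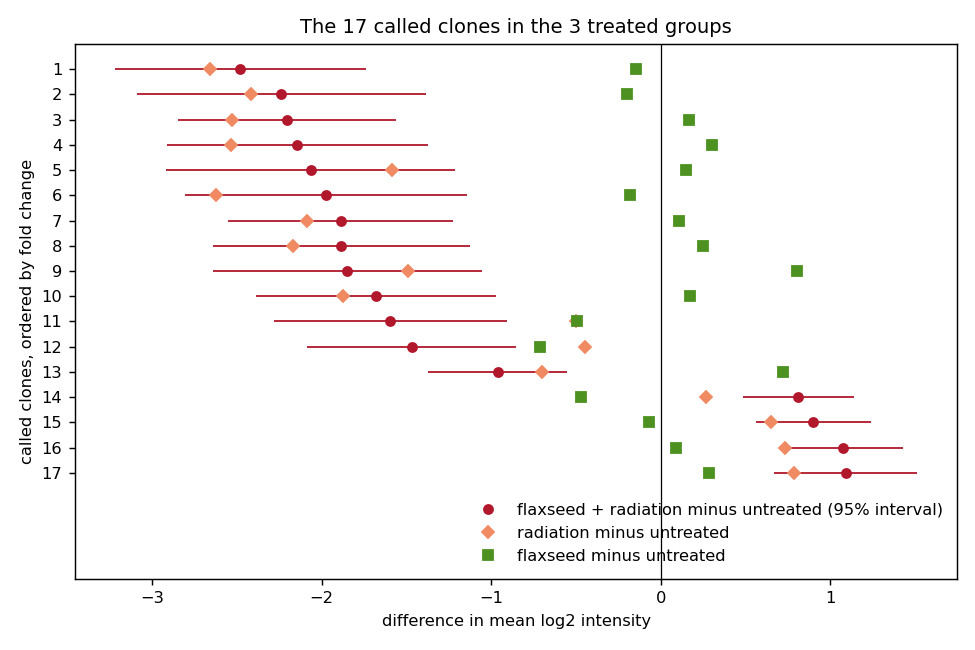
Difference in mean log2 intensity from untreated mice (x axis) of the 17 called clones (rows, ordered by fold change) in doubly treated mice (circles, with 95% intervals), mice given radiation alone (diamonds) and mice fed flaxseed alone (squares). The 3 differences share the untreated mice, and the flaxseed values lie on both sides of 0.

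The radiation and flaxseed groups were also read against the same untreated mice, which the comparison shares. Radiation alone gave the 13 falls differences from -2.66 to -0.45 with a median of -2.08, and flaxseed alone from -0.71 to 0.81 with a median of 0.15. The fall was larger with radiation alone than with both treatments in 8 of the 13. In 2 of the 13, radiation alone and flaxseed alone each stood between -0.71 and -0.45 from untreated mice, and the doubly treated mice at -1.47 and -1.60. For the 4 rises, radiation alone gave 0.27 to 0.79 and flaxseed alone -0.47 to 0.28, while the doubly treated mice were at 0.81 to 1.09. Against untreated mice, 8 of the 13 falls and 1 of the 4 rises passed with radiation alone (0.708% of all clones), and 0 of the 17 passed with flaxseed alone (0% of all clones).

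Clones without overlap were more often bright than dim. Of the 242 clones in which the 5 doubly treated mice lay wholly on one side of the 5 untreated mice, 107 were lower (1.11%) and 135 higher (1.41%). The 960 brightest clones held 30 of the 135 and 16 of the 107, and the 960 dimmest 5 and 7. The median absolute log2 fold change was 0.09 in the 960 dimmest clones and 0.25 in the 960 brightest, where the median residual SD was 0.21 and 0.46. The offset added before taking logarithms compresses differences of dim clones. This concerns the size of differences, and its part in the fold changes and SDs by brightness was not tested.

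Background was higher on all 5 doubly treated arrays than on 4 of the 5 untreated arrays, and untreated mouse 1 was the exception. Median spot signal ranged from 123 to 227 units over the 10 arrays and 88.4% to 93.4% of spots exceeded 2 times their background. Median background was 36.4, 21.5, 19.4, 19.4 and 36.6 units in doubly treated mice 1 to 5, against 35.8, 18.6, 17.9, 15.8 and 16.8 in untreated mice 1 to 5 (two-sided exact permutation p = 0.175, which does not show that the groups were alike). Splitting the 20 arrays at their median background put 2 doubly treated arrays and 1 untreated array above it. Below it, with 3 and 4 mice, the differences of gene7221, gene4847, gene4588 and gene0120 were -2.52, -2.53, 1.19 and 0.88. Above it a single untreated mouse was too few for a value. These clones were chosen by the comparison itself, so the values are a description. With this split as a term 16 clones were called, 14 of them among the 17 in the same direction. The split does not adjust for differences in background between arrays on the same side of it.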

How the data were processed

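Per the file headers, the authors' array files hold the median signal intensity and median background intensity of 9600 spots on 1 array per mouse. The linear intensity scale and the missing background subtraction were read from the values. The labels' protocols give acid phenol extraction of total RNA and radioactive labelling by reverse transcription. The sources used here name no scanner, spot filter or batch. A table of processed intensities was deposited as well. It equalled signal minus background over the array's median difference in 98.1% of values (relative tolerance 0.001) and was the constant 0.002 in 3558 others. It was used as an alternative, with its 169 values at or below 0 set to that constant.

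Signals were corrected with normexp (limma 3.58.1, R 4.3.3, offset 16.3, which is 0.1 times the median signal of 162.5), converted to log2 and quantile normalised over 20 arrays, without a filter. The model had a mean for each of the 4 groups, fitted with lmFit and eBayes (16 residual and 6.08 prior degrees of freedom). Tests were two-sided, with Benjamini-Hochberg adjustment over 9600 clones. The fit was tested on simulated arrays, where 4.56% of calls were false. Their noise was normal and independent between clones, without a membrane tilt or clones that deviate together. The share of false calls in the data themselves is therefore not given by this value. Clones given by ID were the 2 with the smallest p in each direction. Gene lists could not be applied without gene names. The order of spots in the files gave a grid of 120 columns and 80 rows, on which a running median of 15 by 15 spots was taken for the membrane trend. No mouse number of the labels occurs in more than 1 group, so none pairs mice. The tests set group differences against the spread between mice. With 1 array per mouse, this spread includes differences between arrays. The comparison, clones and tests were chosen with earlier results of these data known.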

Additional observations from a re-analysis of the deposited data

Results flagged for a closer look

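Array measures, distances and the clones given by ID made 28 sets of 5 mice in which a lone mouse was looked for. A gap wide for its set was found in 1 of them, where chance gives about 1.4. It was the local background of untreated mouse 1, with a median of 35.8 units, while untreated mice 2 to 5 had 15.8 to 18.6 units. Without this mouse 13 clones were called, and the corrected distance between doubly treated and untreated mice was 0.0468.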

How the results depend on the processing

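The distance between doubly treated and untreated mice passed under all 14 alternatives (exact permutation p up to 0.0179) and with each of the 10 mice left out, at 0.0368 to 0.0468. In the 13 alternatives on the log2 scale it was 0.0266 to 0.0876. The number of calls was 17, and it was 3 with plain background subtraction, 9 with an offset of 50, 5 in the authors' table, 7 with the membrane trend removed, 44 with array weights, 8 without the 2 arrays of lowest residual spread, and 3 to 21 with single mice left out. Falls outnumbered rises in each of these alternatives. Rises were 23.5% of the 17, against 40% in the authors' table, 44.4% with an offset of 50 and 10.5% among the 4800 brightest clones. Clones past 1.5-fold numbered 553, against 1261 with subtraction, 850 with no offset, 351 with an offset of 50, 1465 in the authors' table, 1147 with its constant as missing, 315 with the trend removed and 883 without the 2 quiet arrays (495 to 693 with single mice left out). Clones past 2-fold numbered 58, against 346, 105, 37, 468 and 166 under the first 5 of these and 119 without the quiet arrays (58 to 85). Intervals within 1.5-fold numbered 3386, against 949 with subtraction, 1290 with no offset, 5448 with an offset of 50, 896 in the authors' table, 680 with its constant as missing, 1864 without the quiet arrays, and 1564 and 782 among the 7200 and 4800 brightest clones, where fewer clones were tested (2683 to 3501). Those within 2-fold numbered 8357, 6125 in the authors' table and 3869 among the 4800 brightest (7985 to 8423).

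The difference in distance from untreated mice between doubly treated and flaxseed mice did not pass after adjustment in the main analysis. Unadjusted, it no longer passed with no offset (0.0328, exact permutation p = 0.0714), median scaling (0.0155, p = 0.349), the 4800 brightest clones (0.033, p = 0.0556), without the quiet arrays (0.0291, p = 0.0714) or with the constant as missing (0.0254, p = 0.294). With single mice left out it was 0.0189 to 0.0341. That between doubly treated and radiation mice passed with the trend removed (-0.0283, exact permutation p = 0.0238, adjusted 0.0476) and in none of 11 others, and was -0.036 to -0.00722 with single mice left out. The difference between the distance of radiation from flaxseed mice and that of doubly treated from untreated mice was 0.0591 to 0.0901 with single mice left out. Of the 17 clones, 15 or 16 kept their direction in radiation minus flaxseed with single mice left out, and 14 or more in 16 alternatives. The 14 were all of the 17 that were present among the 4800 brightest clones. The calls of gene7221 and gene4847 held in 18 alternatives and that of gene4588 in 17, and gene0120 lost its call in 5 of 18 (limma adjusted p from 0.00664 to 0.184). The alternatives without the 2 quiet arrays and with the constant as missing were added after seeing the data. Apart from fewer clones tested and the alternatives' own construction, the causes were not tested. No paired analysis was possible.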
